A study of Mus musculus with 12 samples.

Results

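The WAVE regulatory complex is a 5-part assembly that, once the GTPase Rac binds it, drives the Arp2/3 complex to build branched actin, the force behind lamellipodia, phagocytic cups and the surveying processes of microglia. Each position of the complex is filled by 1 protein of a small family: an ABI protein, a NCKAP protein, a CYFIP protein that contacts Rac, a WASF (WAVE) protein that carries the Arp2/3-activating end, and BRK1. Blood-derived and myeloid cells carry forms of their own, *Abi3* at the ABI position and *Nckap1l* (Hem1) at the NCKAP position, with *Rac2* as the blood-cell Rac, whereas *Abi1*, *Abi2*, *Nckap1*, *Cyfip1*, *Wasf2* and *Brk1* are broadly expressed. *Abi3* is also known as a gene with a coding variant associated with Alzheimer's disease. The 10 genes described here, *Abi1*, *Abi2*, *Abi3*, *Nckap1*, *Nckap1l*, *Wasf2*, *Cyfip1*, *Cyfip2*, *Brk1* and *Rac2*, were taken by symbol out of the 48623 genes of the table; each had 1 identifier, and all 10 passed the limit on low values, as did 11204 genes in all. The study itself had singled out *Abi3* and *Nckap1l* by their genotype pattern in these libraries, so genotype values of the 10 genes are given as a description with no test, whereas IL-4 was tested.

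Primary microglia were grown from cortex and hippocampus of newborn mice on a C57BL/6J background, either wild type (WT) or carrying R47H on both *Trem2* alleles (knock-in, KI), a line in which *Trem2* expression is itself reduced. WT cultures were T13, T33 and T43, and KI cultures were T15, T22 and T32. From each culture 1 library was untreated and another had received IL-4, an anti-inflammatory cytokine, at 20 ng/ml for 48 h, for a total of 12 libraries and 3 per group. All cells had first been kept in mixed glial culture and were freed of the astrocyte layer with mild trypsin. By the study's methods, pups of the KI line were cultured separately and genotyped afterwards and the RNA-seq set KI against WT littermates. The labels do not say which cultures shared a litter. Values are TPM (transcript abundances on a common total), which are already divided by transcript length and so allow levels of different genes to be compared. *Trem2*, the check of the labels, was lower in every KI than in every WT library: the untreated WT values were 1328, 1886 and 1538 TPM, and the untreated KI values 325, 770 and 602 TPM.

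The libraries carried microglial RNA with a varying admixture of other glial and stromal transcripts. By cell staining, the study reported a high share of IBA1-positive cells in its cultures. It found cell proportions not substantially different between WT and homozygous KI cultures, untreated or with IL-4. Whether the stained cultures were those sequenced is not stated. Summed over 16 microglial markers, the untreated WT libraries held 26474 to 28639 TPM and the untreated KI libraries 11508 to 22537 TPM, and with IL-4 the sums were 30935 to 36409 and 19901 to 26681 TPM. All 16 markers had a lower mean in untreated KI than in untreated WT cultures and 15 of 16 with IL-4. Of these markers, the study itself found *C1qa*, *Csf1r*, *Spi1* and *Aif1* lower in WT microglia after siRNA knockdown of *Trem2*. Sums of the 9 astrocyte markers lay at 167 to 691 TPM (untreated) and 179 to 615 TPM (IL-4) in WT libraries, and at 220 to 4788 TPM (untreated) and 603 to 3656 TPM (IL-4) in KI libraries, with all 9 higher in KI under both treatments. Culture T15 stood apart from the rest with 4788 and 3656 TPM, where no other library exceeded 691 TPM. Fibroblast and mural markers (9 genes) reached 142 to 617 TPM in WT and 704 to 1327 TPM in KI libraries, oligodendrocyte lineage markers (9 genes) 34.7 to 94.9 and 96.0 to 460 TPM, and neuronal markers (6 genes) 6.77 to 22.2 and 16.2 to 63.6 TPM. These sums rest on their most abundant genes: without IL-4 8 of 9 fibroblast and mural and 8 of 9 oligodendrocyte lineage markers had a higher mean in KI, but with IL-4 only 4 of 9 (5 lower) and 5 of 9 (3 lower). Of the neuronal markers 4 of 6 had a higher mean in KI under both treatments. Lymphocyte markers, of interest because *Abi3*, *Nckap1l* and *Rac2* are also lymphocyte genes, were at most 0.120 TPM in sum in any library, with *Cd79a* and *Nkg7* at 0 throughout. The 4 neutrophil markers summed to at most 14.9 TPM, with *S100a9* and *Ly6g* under 1 TPM in every library, and the 4 endothelial markers to at most 10.0 TPM. In bulk RNA, fewer cells of a type and less RNA per cell cannot be told apart.

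Paralogs of the complex share only short exact stretches of coding sequence, which bears on how far their reads can be separated. The longest identical stretch between the coding sequences of each pair (any annotated transcript, GENCODE vM21, 5′ to 3′) is shown because a read lying within it could match both genes (untranslated regions were not compared):
*Abi3* and *Abi1*: cctcctccccc
*Abi3* and *Abi2*: atggcggagctgcag
*Nckap1l* and *Nckap1*: atgaagttcctgagtga
*Cyfip2* and *Cyfip1*: cagtacaacatctgtgagcagatg
*Rac2* and *Rac1*: atgcaggccatcaagtgtgtggtggtggg
*Wasf2* and *Wasf1*: gtggccaccatcctgtc
They ran from 11 bases for *Abi3* and *Abi1* to 29 bases for the GTPases, against paired reads of 100 bases. The coding sequences themselves span up to 1101 bases in *Abi3*, 1443 in *Abi1*, 3402 in both *Nckap1l* and *Nckap1* and 3759 in both CYFIP genes.

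On GRCm38, *Abi3* (ENSMUSG00000018381) lies on the minus strand of chromosome 11 at 95830074 to 95842476, where it overlaps 3 genes of the plus strand. *Gngt2*, a G protein gamma subunit gene, shares 5261 bases with it and was read at 55.3 to 190.1 TPM. *Zfp652* shares 5042 bases and was read at 3.33 to 9.48 TPM, and *Phospho1* did not exceed 0.828 TPM. The libraries are not stated to keep strand, so reads from any transcript sequence that *Abi3* and *Gngt2* share cannot be told apart with certainty. The overlaps given here are of whole gene spans, introns included, and shared exon sequence was not measured. *Gngt2* was lower in KI as well, at 177 against 98.3 TPM as untreated means and 149.9 against 88.6 TPM with IL-4 (WT against KI), with no overlap in either treatment, and its averaged log2 difference was -0.89 (SE 0.22, limma's F-test, adjusted p = 0.114). *Nckap1l* (ENSMUSG00000022488, chromosome 15, 103453794 to 103498810, plus strand) and *Rac2* (ENSMUSG00000033220, chromosome 15, 78559167 to 78572783, minus strand) overlap no other annotated gene. *Nckap1* (ENSMUSG00000027002) lies on chromosome 2 at 80500512 to 80581380 and *Abi1* (ENSMUSG00000058835) on the same chromosome at 22940073 to 23040241, both on the minus strand. *Cyfip1* (ENSMUSG00000030447, chromosome 7, 55841745 to 55932602) shares 1316 bases with *Nipa2*, read at 37.1 to 84.9 TPM. Every other gene overlapping 1 of the 10 had at most 17.2 TPM.

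In untreated WT microglia the subunits were not equally abundant. *Brk1*, the smallest subunit, was highest at 286 ± 11.5 TPM (mean ± SD, n = 3, as for all group values), followed by *Cyfip1* at 217 ± 24.1, *Nckap1l* at 138 ± 20.2 and *Abi1* at 94.5 ± 11.3 TPM, and the ranges of these neighbours did not overlap. The range of *Rac2* (91.2 ± 15.5 TPM) overlapped both that of *Abi1* and that of *Abi3* (75.0 ± 14.3 TPM). The lowest *Abi1* value, 86.8 TPM, lay just above the highest *Abi3* value, 86.5 TPM. *Wasf2* followed at 29.0 ± 13.3 TPM, below every *Abi3* value, and *Nckap1*, *Cyfip2* and *Abi2* closed the order at 11.0 ± 7.10, 10.1 ± 6.46 and 7.59 ± 5.37 TPM with overlapping ranges. *Rac1*, the broadly expressed Rac, was read at 489 to 644 TPM, above all 10 genes. *Brk1* varied little among the untreated WT cultures, with a coefficient of variation of 4.03%, and most in KI with IL-4, at 15.1%, where *Abi1* (7.45%) and *Cyfip1* (9.07%) varied less.

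**Figure D1:**
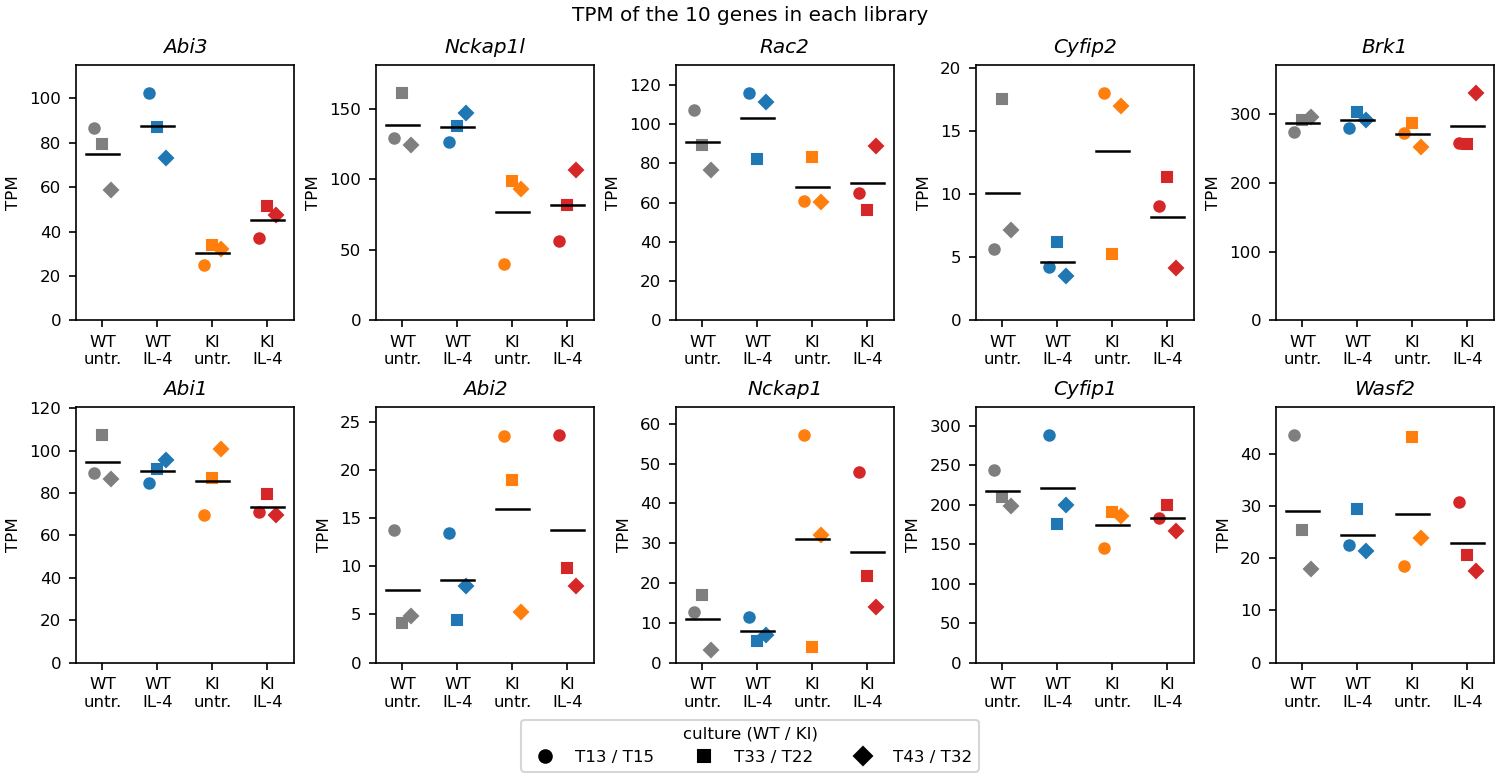
TPM of each of the 10 genes (vertical axes from 0) in the 12 libraries, by group; points are libraries, shapes mark cultures and bars are group means. *Abi3* and *Nckap1l* lay lower in every KI than in every WT library under both treatments, *Brk1* stayed between 252 and 331 TPM, and *Nckap1* and *Abi2* were highest in KI culture T15.

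*Abi3*, the myeloid ABI protein, was the member with the lowest KI level relative to WT. Without IL-4 it was read at 86.5 (T13), 79.7 (T33) and 59.0 TPM (T43) in WT. The KI values were 24.8 (T15), 34.2 (T22) and 32.1 TPM (T32). With IL-4 the same cultures had 103, 87.2 and 73.3 TPM (WT) and 37.3, 51.3 and 47.4 TPM (KI). Every KI library therefore lay below every WT library of its treatment, and even the IL-4-treated KI cultures stayed below the lowest untreated WT culture. The mean was 2.47-fold higher in WT than in KI without IL-4 and 1.93-fold higher with it. Averaged over treatments, KI minus WT was -1.10 on the log2(TPM + 1) scale (SE 0.16), against a median of 0.13 over all 11204 genes, and it was -0.97 without culture T15. The SEs of all genotype differences come from a fit that takes the 2 libraries of a culture as independent. They are therefore not the spread between cultures, although genotype differs only between cultures.

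*Nckap1l*, the myeloid NCKAP scaffold, had the same order of groups but a wider spread. Untreated WT cultures had 129, 161 and 124 TPM and untreated KI cultures 39.8, 98.5 and 92.8 TPM. With IL-4 the values were 126, 138 and 147 TPM in WT and 56.5, 81.6 and 107 TPM in KI. The groups did not overlap in either treatment, and T15 was the lowest KI culture in both. The WT mean was 1.79-fold and 1.68-fold higher, the averaged log2 difference was -0.86 (SE 0.22), and without T15 it was -0.53. Non-overlap below WT in both treatments held for 2 of the 10 genes, *Abi3* and *Nckap1l*, and for 1.23% of all genes tested, and non-overlap above WT in both treatments for 0 of 10 and 3.7% of all genes. Since the genotype pattern took part in choosing the genes, nothing is read from these counts.

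*Rac2*, the Rac of blood cells, was read at 107, 89.6 and 76.4 TPM in untreated WT and 60.9, 83.1 and 60.4 TPM in untreated KI cultures. Its groups overlapped through KI culture T22, and they overlapped with IL-4 as well, at 116, 82.1 and 111 TPM in WT and 65.0, 56.5 and 89.0 TPM in KI. The averaged difference was -0.49 (SE 0.16), or -0.43 without T15.

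The broadly expressed subunits lay on both sides of 0. *Nckap1*, the general form of the NCKAP scaffold, was read at 12.7, 17.0 and 3.15 TPM in untreated WT and 57.2, 3.81 and 32.1 TPM in untreated KI cultures, which overlapped. With IL-4 it was read at 11.6, 5.51 and 7.02 TPM in WT and 47.9, 21.7 and 14.0 TPM in KI cultures, which did not. Its averaged log2 difference was 1.31 (SE 0.56) and 0.70 without T15. *Abi2*, the third ABI gene, had 13.8, 4.10 and 4.89 TPM in untreated WT and 23.6, 19.0 and 5.28 TPM in untreated KI cultures, an overlap through T32, and its difference went from 0.76 (SE 0.44) to 0.35 without T15 and to 1.21 without T32. In both genes, therefore, the culture with the most astrocyte RNA held the highest KI values.

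*Abi1*, the principal broadly expressed ABI protein, differed by -0.22 (SE 0.13), with 89.2, 107 and 86.8 TPM in untreated WT and 69.5, 86.9 and 101 TPM in untreated KI cultures, which overlapped. With IL-4 it was read at 84.7, 91.1 and 95.5 TPM in WT and 71.0, 79.6 and 69.4 TPM in KI cultures, which did not overlap. *Cyfip1*, the main Rac-binding subunit, differed by -0.28 (SE 0.14), with 198 to 244 TPM in untreated WT and 146 to 191 TPM in untreated KI cultures, which overlapped once IL-4 was given. *Wasf2*, the Arp2/3-activating subunit, and *Brk1* both differed by -0.07 (SE 0.26 and 0.10) with overlapping groups under both treatments. *Cyfip2*, a CYFIP form best known from neurons and lymphocytes, differed by 0.50 (SE 0.39, but 0.31 without T15 and 0.82 without T33), at 5.69, 17.5 and 7.14 TPM in untreated WT and 18.1, 5.30 and 17.0 TPM in untreated KI cultures. The 3 blood-cell genes thus had a median KI minus WT difference of -0.86, all 3 below 0, and the 6 broadly expressed genes one of -0.07, with 4 below 0 and 2 above. This tally rests in part on *Wasf2*, whose difference was 0.08 without T13 and 0.06 without T32, and *Cyfip1* moved to -0.13 without T13. The blood-cell median is the *Nckap1l* value, which was -0.53 without T15. The median of the 6 lies between *Wasf2* and *Brk1*. These were at -0.29 and -0.08 after quantile normalization and at -0.18 and -0.19 after median-ratio scaling.

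**Figure D2:**
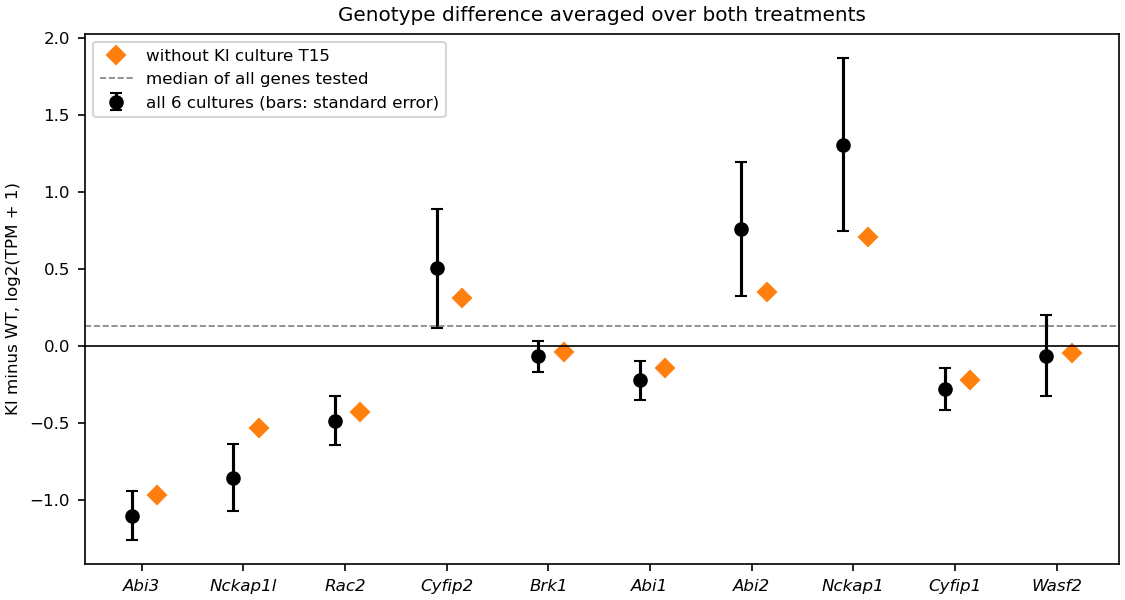
KI minus WT on the log2(TPM + 1) scale, averaged over both treatments, for each gene (black, bars are standard errors) and the same without KI culture T15 (orange). The standard errors take the 2 libraries of a culture as independent. *Abi3* moved from -1.10 to -0.97 and *Nckap1l* from -0.86 to -0.53, and the dashed line marks the median of all genes tested at 0.13.

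In the limma fit across all genes the genotype calls took in 1.65% of the genes, among them 1 of the 10, *Abi3* (0 of 10 without WT culture T33). As this contrast took part in choosing the genes, the count is a description of the fit, not a test of them, and nothing is read from it. Scaling moved both the reference and the members. The median KI minus WT difference over all genes was 0.13 on the values as given, -0.08 once quantiles were matched and 0.02 with median-ratio scaling, and *Abi3* was at -1.10, -1.27 and -1.22. Within the sample names, cultures T13 and T15 are written in another style than the other 4, a difference whose meaning the labels do not give. KI minus WT of *Abi3* was -1.60 between T13 and T15 and -0.86 among the other 4 cultures, that of *Nckap1l* -1.41 and -0.58, that of *Rac2* -0.82 and -0.32 and that of *Nckap1* 2.02 and 0.95.

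Since the microglial markers were lower in KI libraries too, levels were also set against them. The mean log2 level of the 16 markers differed by -0.67 between KI and WT. Relative to it, KI minus WT was -0.44 for *Abi3* and -0.19 for *Nckap1l*, whereas *Rac2* stood at 0.18, *Cyfip1* at 0.38, *Abi1* at 0.44 and *Nckap1* at 1.97. On this scale, with all 6 cultures, *Abi3* and *Nckap1l* were the 2 of the 10 genes below 0. The scale was not recomputed without T15, where the unscaled *Nckap1l* difference was -0.53 in place of -0.86. Whether *Nckap1l* stays below 0 on it without T15 was therefore not tested. Over the 12 libraries, which come from 6 cultures and share their genotype, Pearson's r with the mean of the microglial markers was 0.91 for *Abi3*, 0.90 for *Cyfip1*, 0.78 for *Nckap1l* and 0.72 for *Rac2*. Without T15 (10 libraries) these were 0.84, 0.87, 0.54 and 0.63. With the summed astrocyte markers r was 0.86 for *Nckap1*, 0.73 for *Abi2*, -0.88 for *Nckap1l* and -0.56 for *Abi3*, and without T15 it was 0.72, 0.40, -0.53 and -0.11. With the summed fibroblast and mural markers, a sum higher in every KI library although 5 of its 9 genes had a lower mean in KI with IL-4, r was -0.77 for *Abi3*, -0.67 for *Nckap1l*, 0.52 for *Nckap1* and 0.52 for *Abi2*. The part of the other cell types in these differences was not tested.

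**Figure D3:**
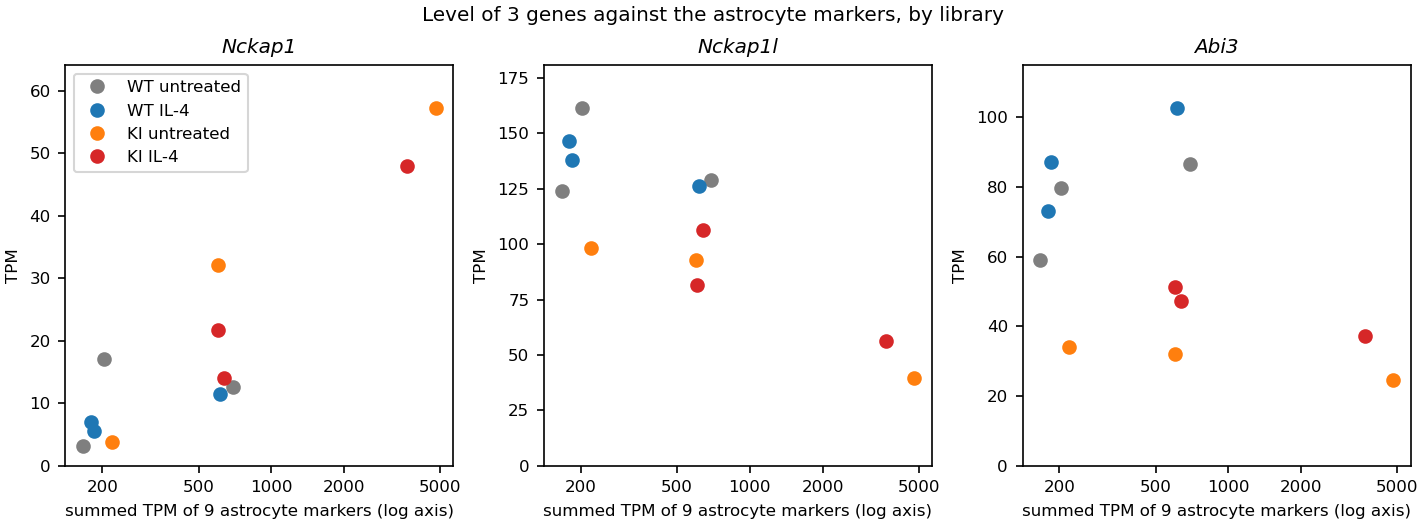
TPM of *Nckap1*, *Nckap1l* and *Abi3* (vertical axes from 0) against the summed TPM of 9 astrocyte markers (log axis), 1 point per library, coloured by group. The libraries of T15 lie far right at 4788 and 3656 TPM, with the highest *Nckap1* and lowest *Nckap1l*.

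At the ABI position the composition was also described, as each gene's share of the TPM summed over its family. *Abi3* made up 42.2% ± 3.28 of ABI transcripts in untreated WT and 22.9% ± 1.72 in untreated KI cultures. With IL-4 its share was 46.8% ± 4.89 in WT and 34.2% ± 5.25 in KI cultures. The untreated ranges, 39.1 to 45.6% and 21.0 to 24.4%, lay apart. *Abi1* held 53.6% ± 5.71 of the position in untreated WT and 64.6% ± 7.32 in untreated KI, and *Abi2* 4.22% ± 2.70 and 12.5% ± 8.15. The summed ABI level was 177 ± 23.0 TPM in untreated WT against 132 ± 12.2 TPM in untreated KI, and 187 ± 12.6 against 132 ± 8.0 TPM with IL-4.

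At the NCKAP position *Nckap1l* held 93.0% ± 3.92 of the transcripts in untreated WT and 94.4% ± 2.45 with IL-4. In KI its share was 70.5% ± 27.8 without and 73.8% ± 17.7 with IL-4, and it varied from 41.0% in untreated T15 to 96.3% in untreated T22. The CYFIP and WASF positions were each filled mainly by 1 gene. *Cyfip1* made up 92.6% to 97.8% of CYFIP transcripts as group means. *Wasf2* made up 96.5% ± 3.30 of WASF transcripts in untreated WT, with *Wasf1* and *Wasf3*, both below the limit on low values, making up the rest. In untreated KI the *Wasf2* share was 77.9% ± 28.4 and reached its lowest value, 45.7%, in T15, where *Wasf1* was read at 15.9 TPM and *Wasf3* at 6.09 TPM. At these positions T15 therefore held the lowest shares of *Nckap1l* and *Wasf2* of all libraries in each treatment.

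**Figure D4:**
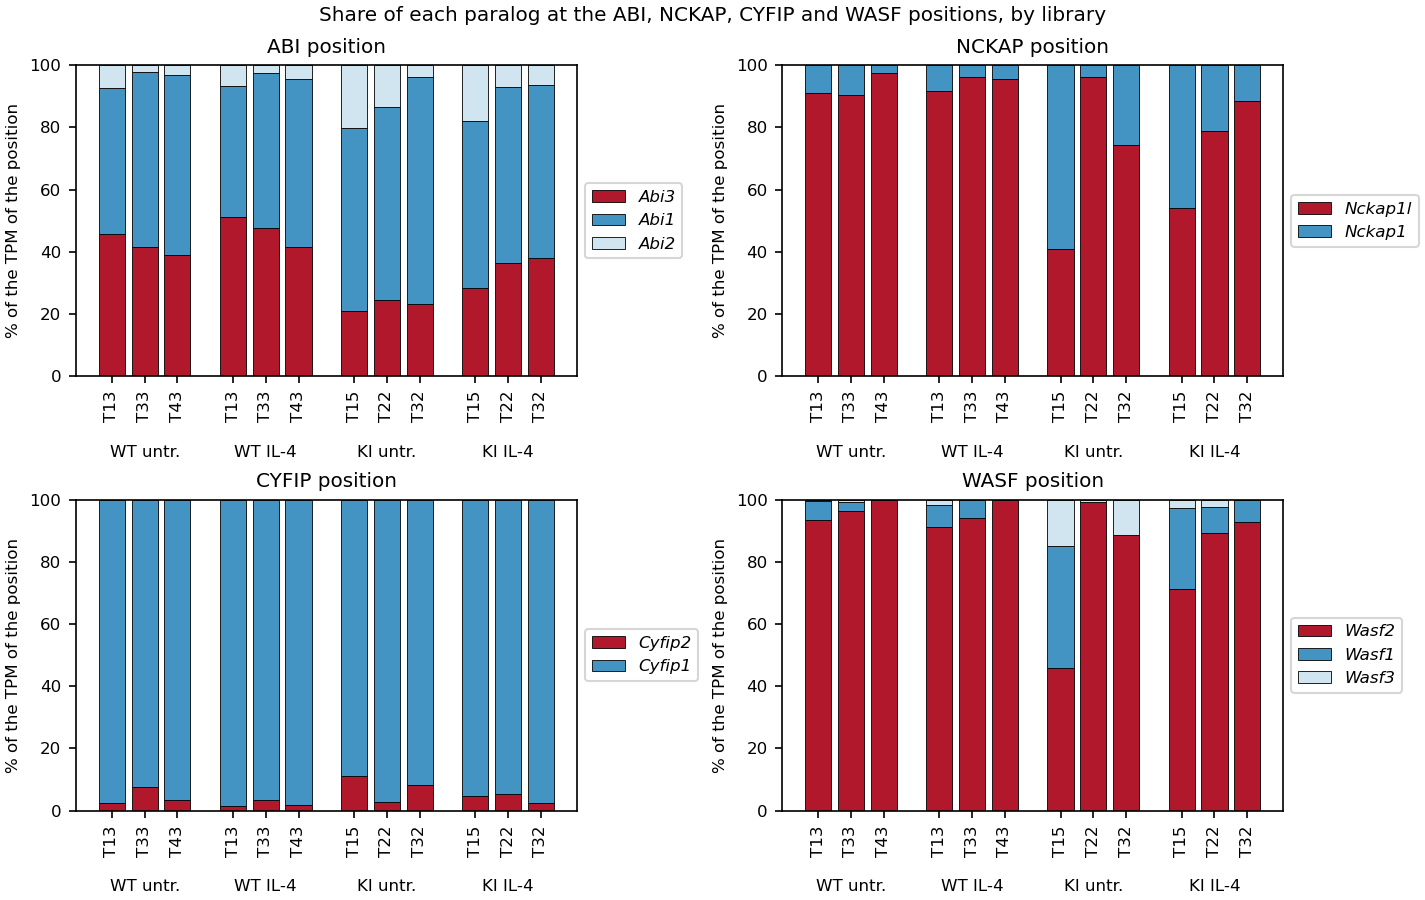
Percentage of the summed TPM of each family contributed by each gene, 1 stacked bar per library, grouped by genotype and treatment. The *Abi3* share was 21.0 to 24.4% in untreated KI and 39.1 to 45.6% in untreated WT libraries, and untreated T15 showed the lowest *Nckap1l* share at 41.0%.

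The IL-4 comparison asked whether an anti-inflammatory stimulus changed the complex, and no member passed its test. By the F-test of limma for IL-4 and its interaction, with Benjamini-Hochberg adjustment over 11204 genes, 0 of the 10 genes passed, where 0.893% of all genes did (100 genes), and at an unadjusted 0.05 it was 0 of 10 against 814 of 11204 genes. For the interaction 0 of 10 and 0% of all genes passed, and at an unadjusted 0.05 it was 0 of 10 against 357 of 11204 genes. The median IL-4 difference over the 10 genes was 0.04, the same to 2 decimals as that over all genes.

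*Abi3* was higher with IL-4 in 6 of 6 cultures, which was true of 1 of the 10 genes and of 5.73% of all genes, while 0 of 10 and 2.51% of all genes were lower in all 6. The change was 0.24, 0.13 and 0.31 on the log2(TPM + 1) scale in WT cultures T13, T33 and T43 and 0.57, 0.57 and 0.55 in KI cultures T15, T22 and T32. The averaged difference was 0.40 (SE 0.16), which did not pass limma's F-test (unadjusted p = 0.0531, adjusted p = 0.699, between 0.306 and 1.00 over the alternatives tried). With culture as a block, the setting with the lowest adjusted value, limma gave an unadjusted p of 0.0188 and an adjusted p of 0.306 (SE 0.13), and *Abi3* was then the 1 of 10 genes under an unadjusted 0.05, as were 1192 of 11204 genes. The mean log2 level of the microglial markers moved with it in part, by 0.14, -0.18 and -0.01 in the WT and 0.40, 0.25 and 0.02 in the KI cultures. Relative to this mean *Abi3* was higher with IL-4 by 0.11, 0.31 and 0.32 in WT and by 0.17, 0.32 and 0.52 in KI cultures. The summed marker TPM, however, was higher with IL-4 in every culture, by 1.38-fold in T13 and 1.73-fold in T15, and relative to the sum *Abi3* was higher in 4 cultures and lower in T13 and T15. *Gngt2*, which shares the locus, was lower with IL-4 in 4 of 6 cultures, with changes from -0.87 to 0.50.

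The log2 change of *Abi3* was larger in every KI than in every WT culture, a comparison made after these values were seen, which held for 1 of the 10 genes and 3.95% of all genes. The KI change minus the WT change was 0.34 (SE 0.32) and did not pass limma's test of the interaction (unadjusted p = 0.307, adjusted p = 1.00). That SE comes from the fit without pairing, and with culture as a block it was 0.26 (limma, unadjusted p = 0.212, adjusted p = 0.969). In TPM the changes overlapped, at 16.1, 7.49 and 14.3 TPM in WT and 12.5, 17.2 and 15.3 TPM in KI cultures. Relative to the mean of the microglial markers they overlapped as well.

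**Figure D5:**
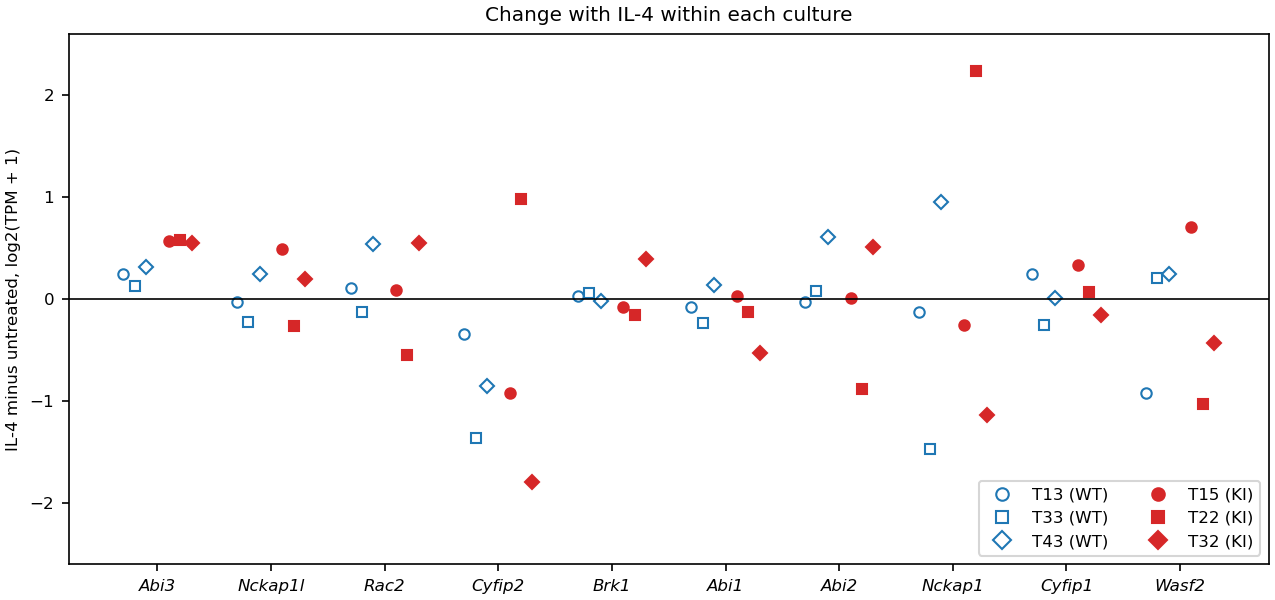
IL-4 minus untreated within each culture on the log2(TPM + 1) scale for the 10 genes; open blue symbols are WT cultures, filled red symbols KI cultures. *Abi3* was above 0 in all 6 cultures, between 0.13 and 0.57, while *Nckap1* ranged from -1.47 to 2.24.

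The other members showed no common direction with IL-4. *Cyfip2* was lower in 5 of 6 cultures, with a mean of -0.72 (SE 0.39) and an exception in T22, where it was 0.98 higher, and it did not pass limma's F-test (adjusted p = 0.925). *Nckap1l* was higher in 3 and lower in 3 cultures (mean 0.07, SE 0.22), and *Brk1* likewise (0.04, SE 0.10). *Wasf2* changed by -0.20 (SE 0.26), *Abi1* by -0.13 (SE 0.13) and *Rac2* by 0.10 (SE 0.16), with 3, 4 and 2 of the 6 cultures lower. The widest spread was that of *Nckap1*, from -1.47 in T33 to 2.24 in T22, around a mean of 0.03 (SE 0.56). In T22 the astrocyte marker sum went from 220 to 603 TPM between the untreated and the IL-4-treated library, but in T33 only from 203 to 185 TPM. In T32 it went from 601 to 639 TPM while *Nckap1* changed by -1.14, and in T43 from 167 to 179 TPM while *Nckap1* changed by 0.95. T13 (691 to 615 TPM) and T15 (4788 to 3656 TPM) had *Nckap1* changes of -0.12 and -0.25. A relation between these changes was not tested. The averages of *Abi2*, *Nckap1*, *Cyfip1* and *Brk1*, all within 0.05 of 0, changed sign when the libraries were rescaled.

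Paralogs were compared within cultures by the log2 ratio of the pair. In 4 of the 6 pairs a blood-cell gene stood against a broadly expressed one, while *Cyfip2* to *Cyfip1* and *Wasf2* to *Wasf1* were pairs of other kinds. The ratio of *Abi3* to *Abi1* was -0.34 ± 0.26 in untreated WT, -0.06 ± 0.33 in WT with IL-4, -1.46 ± 0.15 in untreated KI and -0.69 ± 0.20 in KI with IL-4. It was higher with IL-4 in 6 of 6 cultures, by 0.17 to 1.08 with a mean of 0.53 ± 0.32 (SD, n = 6). An exact two-sided sign-flip permutation test gave p = 0.03125, the smallest value that 6 cultures can give, and an adjusted p of 0.188 over the 6 ratios tested. With this smallest value a single changed ratio could not have passed the adjusted threshold, so the adjusted values say nothing about the absence of a change. The ratio of *Cyfip2* to *Cyfip1* was lower in 5 of 6 cultures (mean -0.76, exact permutation p = 0.125, adjusted p = 0.375). *Abi3* to *Abi2* changed by 0.35 (exact permutation p = 0.188, adjusted p = 0.375), *Nckap1l* to *Nckap1* by 0.03 (exact permutation p = 0.906), *Rac2* to *Rac1* by 0.09 (exact permutation p = 0.562) and *Wasf2* to *Wasf1* by -0.61 (exact permutation p = 0.312). The last rests on the pseudocount, since *Wasf1* was listed at 0 in 4 libraries, and was -1.56 with a pseudocount of 0.1, while *Abi3* to *Abi2* fell to 0.13 without T22. Only the *Abi3* to *Abi1* ratio, of the 6, moved in the same direction in every culture. Across genotypes, as a description, the ratio of *Nckap1l* to *Nckap1* was 3.78 ± 0.98 in untreated WT and 1.79 ± 2.45 in untreated KI, where single cultures ran from -0.51 in T15 to 4.37 in T22.

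Around the complex, 52 genes were listed that signal to it, hold it back or act beside it, and 44 of them passed the limit on low values. *Baiap2* (IRSp53), an adaptor that links Rac to WAVE at the membrane, was the 1 of 44 past the threshold for IL-4, where 0.893% of all genes were. It rose from 4.28, 9.80 and 4.81 TPM to 36.9, 26.5 and 27.1 TPM in WT cultures T13, T33 and T43. In KI cultures T15, T22 and T32 it went from 12.2, 16.7 and 15.9 TPM to 26.9, 27.6 and 19.0 TPM. Treated and untreated libraries did not overlap in either genotype, and all 6 cultures were higher with IL-4, by 0.24 to 2.84 on the log2 scale. The averaged difference was 1.41 (SE 0.24, limma's F-test, adjusted p = 0.0107). The call was lost without WT culture T13 (adjusted p = 0.177), without WT culture T43 (0.178) and with no limit on low values (0.0860), always with a positive difference. The change in KI minus that in WT, -1.48, did not pass limma's test (unadjusted p = 0.00779, adjusted p = 1.00). Higher with IL-4 in all 6 cultures were 3 of 44 genes, *Baiap2*, *Nck1* and *Arpc4*, where 5.73% of all genes were, and lower in all 6 was 1 of 44, *Elmo1*, where 2.51% were, both near the background. *Nck1*, an adaptor upstream of WAVE, differed by 1.05 on average (SE 0.31, limma's F-test, adjusted p = 0.332), *Arpc4* by 0.12 (SE 0.10, adjusted p = 0.991) and *Elmo1*, a partner of the DOCK exchange factors for Rac, by -0.48 (SE 0.20, adjusted p = 0.784). None of these 3 passed.

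For genotype, 0 of the 44 genes passed limma's F-test, and 11 of 44 were under an unadjusted 0.05, where 1799 of 11204 genes were. As a description with no test of the list, 28 of 44 had a difference below 0 and 16 one above, with a median of -0.24, where 4130 of 11204 genes lay below 0 with a median of 0.13. Below 0 were 7 of the 9 subunits of the Arp2/3 complex (median -0.33), 9 of 12 Rac exchange factors and adaptors (median -0.44) and 5 of 6 Rac inhibitors (median -0.34). Of the WAVE and ABI partners 7 of 9 lay above 0, as did 7074 of 11204 genes. Their median of 0.06 was under the 0.13 of all genes. *Arhgdib*, a GTPase inhibitor of blood cells on the list of Rac inhibitors, had the smallest adjusted p (difference -0.52, SE 0.12, limma's F-test, adjusted p = 0.0600). *Wasl* (N-WASP), the broadly expressed activator of Arp2/3 outside the WAVE complex, differed by 0.65 (SE 0.17, adjusted p = 0.125) and was the 1 of 44 genes higher in every KI than in every WT library of both treatments, where 3.7% of all genes were. The Arp2/3 subunit *Arpc4* (-0.35, SE 0.10, adjusted p = 0.168) was the 1 of 44 lower in this sense, where 1.23% of all genes were. Single genes at such shares are not set apart from the background. The microglial markers moved in the same direction as the list median, and their part in it was not tested.

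Among 11203 other genes, those with the pattern most like that of *Abi3* over the 12 libraries, by Pearson's r of log2(TPM + 1), were *Cd72* (0.95), *Gm42031* (0.94), *Atox1* (0.93), *Csk* (0.93) and *Ucp2* (0.93). Of the other members *Nckap1l* came first, at rank 89 with r of 0.82, before *Rac2* at rank 184 (0.75) and *Cyfip1* at rank 236 (0.72). *Abi1* (0.47), *Brk1* (0.33) and *Wasf2* (0.12) followed, and *Abi2* (-0.45), *Cyfip2* (-0.48) and *Nckap1* (-0.50) ran the other way. Without T15 these last values shrank to -0.09, -0.29 and -0.15, while *Nckap1l* kept 0.75 and *Rac2* 0.67. The overlapping gene *Gngt2* had r of 0.72 and rank 244. Libraries of a culture and of a genotype are not independent, so these values carry no test.

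Promoter windows of RefSeq (GRCm38.p6, 250 bases before to 50 after the start) were at hand for 4 of the 10 genes, *Abi1* (with 2 windows), *Wasf2*, *Brk1* and *Cyfip2*. The letters GAGGAA, a purine-rich core of the kind bound by the myeloid factor PU.1, were found on either strand 1 time in each *Abi1* window and 2 times in the *Brk1* window, and 28.3% of all 32851 windows of this length hold them. They were in neither the *Wasf2* nor the *Cyfip2* window. The STAT6 form, TTC and GAA held apart by any 4 bases, was searched because STAT6 acts downstream of IL-4. It was in none of these windows and in 6.95% of all windows.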

How the data were processed

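Libraries were made from poly(A)-primed cDNA (SMART-Seq v4) and sequenced as paired reads of 100 bases. Trimming (Trim Galore), transcript quantification (Salmon, GRCm38) and summary per gene (tximport) were done by the authors. Tool versions are not given in the sources used here. The deposited values are TPM, scaled by the authors for transcript length and library size to the same total in each library, and 20750 to 23945 genes were above 0 per library. TPM keeps no read counts, so the depth behind a value is unknown, no counting interval is given, and precision rests on the spread between libraries. The authors tested counts; those were not analysed here.

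Identifiers were matched to GENCODE vM21 (48419 of 48623 genes). Values were transformed to log2(TPM + 1), which understates changes of low genes, and genes with a mean above 1.5 were tested. The fit used R 4.3.3 and limma 3.58.1 (eBayes with a variance trend) with genotype, IL-4 and their interaction over all 12 libraries. IL-4 and genotype were each tested with their interaction as 2 coefficients (the study used a likelihood-ratio test, whose reduced model the sources used here do not give), with Benjamini-Hochberg adjustment and a threshold of 0.05. This fit takes the 2 libraries of a culture as independent for all 3 tests and for every SE printed without a block. Ratios, tested by exact permutation of the treatment within cultures, and plots used Python 3.11.15, numpy 2.4.6, pandas 2.3.3 and scipy 1.17.1. The fit was tested on simulated data.

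An untreated and an IL-4 library were paired by the culture code that their names share. Deviations of the pair from their group means correlated at 0.34 in T13, 0.38 in T15, 0.12 in T22, 0.10 in T33 and T43 and 0.08 in T32. T22 correlated more with another culture, at 0.19 at most, so the pairing rests on the names. The members and lists were chosen with earlier results of these data known. Named are all members, *Trem2*, genes overlapping a member, list genes past the threshold and the 5 genes most like *Abi3*. *Nck1*, *Elmo1*, *Arhgdib*, *Wasl* and *Arpc4* were named after their values were seen, and the family shares, the levels relative to markers, the correlations with markers and the comparison of IL-4 changes between genotypes were added then too.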

Additional observations from a re-analysis of the deposited data

How the results depend on the processing

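None of the 10 genes passed for IL-4 or the interaction under any of the alternatives run (pseudocount 0.1, no limit on low values, a limit at 3, quantile and median-ratio scaling, no variance trend, a 1-coefficient test where there is one, culture as a replicate block, and each culture left out). The paired fit, with culture as a replicate block, gave 0 of 10 genes for IL-4 and the interaction and 1 for genotype, and changed no call on the 44 pathway genes. Its values for the other genes named, such as *Trem2* and *Gngt2*, are not given here. Over all genes it gave 240 IL-4 calls in place of 100, and 77 genotype calls in place of 185. The genotype count among the 10 genes, which this contrast helped to choose and which is therefore no test of them, was 1 as reported, 0 with no limit on low values, 0 with no variance trend, 2 with the 1-coefficient test (*Abi3* and *Nckap1l*), and 0 to 1 with a culture left out. Among the 44 pathway genes the IL-4 count was 0 with no limit on low values and 0 to 1 with a culture left out, and the genotype count was 2 with the 1-coefficient test (*Arhgdib* and *Wasl*) and 0 to 1 with a culture left out, the 1 being *Arhgdib* without T32. The causes were not tested.

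IL-4 differences of genes near 0 changed sign. After quantile and median-ratio scaling they were -0.000438 and -0.00200 for *Abi2*, -0.0128 and -0.0103 for *Nckap1*, -0.0206 and -0.0136 for *Cyfip1* and -0.0411 and -0.0158 for *Brk1*. Without a culture, *Wasf2* ran from -0.44 to -0.01, *Cyfip2* from -1.11 to -0.41 and *Abi1* from -0.19 to -0.05 with no change of sign. With a culture left out the others ran from -0.11 to 0.24 for *Abi2*, -0.0211 to 0.17 for *Nckap1l*, -0.45 to 0.39 for *Nckap1*, -0.0240 to 0.10 for *Cyfip1*, -0.0488 to 0.0901 for *Brk1* and -0.0268 to 0.25 for *Rac2*. The IL-4 change of the *Nckap1l* to *Nckap1* ratio was -0.0021 with a pseudocount of 0.1 and ran from -0.23 to 0.54 with a culture left out, and that of *Rac2* to *Rac1* from -0.0054 to 0.16. The *Abi3* to *Abi2* ratio ran from 0.13 to 0.48 and the *Wasf2* to *Wasf1* ratio from -0.97 to -0.23. *Wasf2* was the member whose genotype difference changed sign without a culture (-0.25 to 0.08), and it was -0.29 after quantile normalization. With median-ratio scaling *Wasf2* was at -0.18 and *Brk1* at -0.19. After quantile normalization *Abi1* was at -0.36 and *Abi2* at 0.46. Genotype differences ran from 0.35 to 1.21 for *Abi2*, 0.70 to 1.88 for *Nckap1*, 0.31 to 0.82 for *Cyfip2* (0.23 after quantile normalization), -1.06 to -0.53 for *Nckap1l*, -0.37 to -0.13 for *Cyfip1*, -0.27 to -0.14 for *Abi1*, -0.57 to -0.38 for *Rac2* and -1.25 to -0.97 for *Abi3* with a culture left out. Neither with 6 cultures nor with 5 could a single ratio pass an adjusted 0.05. The sum over identifiers was not run separately, as each gene had 1 identifier. The reads behind each TPM value are unknown, which limits what can be said of genes near 5 TPM, and with 3 cultures per genotype a single culture such as T15 carries much of a mean.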
